A study of Rattus norvegicus with 6 samples.

Results

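The genes described here encode sodium channels, voltage-gated calcium channels, TRP channels, mechanosensitive Piezo channels, hyperpolarization-activated HCN channels and acid-sensing ASIC channels. They were taken from the mRNA table by a rule on their symbols, and 65 of its 16551 genes matched. The rule was chosen with earlier results of these data known. The RNA was from cultured rat dorsal root ganglion cells (the ganglia hold sensory neurons and their glia, next to the spinal cord), in 3 control samples and 3 samples of a group named DM. The control cells were kept in DMEM, whose glucose level was not given, and the other cells in high-glucose medium (45 mmol/L) for 48 h. The labels do not state that DM is the high-glucose group, which is an assumption here, and no sample controlled for osmolarity. The labels speak of duplicates, with no word on separate cultures or animals, so p-values here reflect just the variation among these libraries, possibly technical. Paraformaldehyde appears in the growth protocol, with no word on which cells it was used for. Strain, sex and age of the rats were not given in the sources used here.

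Voltage-gated sodium channels carry the upstroke of the action potential: one large alpha subunit forms the pore and small beta subunits tune its gating and its place in the membrane. Calcium channels are built on a pore-forming alpha1 subunit, named L, P/Q, N, R or T-type by its current, with alpha2delta and beta subunits that bring it to the surface. TRP and Piezo channels are cation channels opened by heat, cold, irritants, lipids or stretch, HCN channels carry a pacemaker current, and ASIC channels open in acid. In sensory neurons several of them, such as Scn9a (Nav1.7), Scn10a (Nav1.8), Trpv1 and Piezo2, carry pain, heat and touch signals, while others, such as Trpm7, Cacna1c and Piezo1, are used by many cell types.

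The 3 mRNA libraries of control held 28949744 to 32181594 reads and those of high glucose 28780612 to 33108451, counted over the genes of the table. Values are log2 CPM, the logarithm of reads relative to the size of the scaled library, and a log2 fold change is high glucose minus control with its standard error (SE) from limma. Reads of neuronal markers ranged widely in these ganglion cultures. Over the 3 samples of a group, Map2 had 7676 control reads and 8371 high-glucose reads, Uchl1 5184 and 4584, Tubb3 2034 and 847, and Stmn2 1093 and 259. Snap25, a synaptic protein, had 27 control reads and 2 high-glucose reads, and Rbfox3, the neuronal nuclear marker NeuN, had 6 and 9. The fibroblast collagen Col1a1 had 3069743 and 2503119. The marker counts that follow stand beside a share of 50.5% of all genes that passed (58.6% of those with at least 60 reads), and that of the pan-neuronal markers was 58.8%. Of 17 pan-neuronal markers 9 were lower and 1 higher, with a summed level of 208 to 215 CPM in control and 169 to 171 CPM in high glucose. The 1 higher was Syt1, with 669 control reads and 1332 high-glucose reads. Of 11 nociceptor markers, 3 of them channel genes described here, 5 were lower and 2 higher (7.65 to 7.80 against 6.45 to 7.10 CPM). Tac1 and Prdm12 had 0 reads in high glucose on just 7 and 5 control reads, and Prdm12 did not pass. The 2 higher were P2rx3, with the most reads of the list (176 in control and 424 in high glucose), and Mrgprd (1 and 15). Of 13 Schwann cell markers 12 were lower and none higher (1118 to 1156 against 673 to 722 CPM), of 7 satellite glia markers 4 were lower and 1 higher (200.3 to 210.0 against 181 to 199 CPM), and of 11 mural and smooth muscle markers 6 were lower and 3 higher (14800 to 14950 against 8350 to 8418 CPM). Sox10 and Cdh19 stand in both the Schwann cell and the satellite glia list, so these 2 counts are not independent. Of 9 measured fibroblast markers 6 were higher and 2 lower, while their summed level, in which Col1a1 weighs most, was 54370 to 56570 CPM in control and 50970 to 53560 CPM in high glucose. Of 6 measured large-diameter sensory neuron markers 3 were higher and 1 lower, led by Spp1, which many cell types make. Of 7 measured macrophage markers 1 was higher and 2 lower, and none of 6 measured endothelial markers passed, with 2 of them at an unadjusted p under 0.05. In bulk RNA, fewer cells of a type and less RNA per cell cannot be told apart, and the part that these shifts had in the channel genes' values was not tested.

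The channel genes were split between rises and falls. Of the 65, 15 were higher and 14 lower in high glucose at an adjusted p under 0.05 and 36 did not pass, where 50.5% of all genes passed. The count of lower genes was 9 without the second control sample. The 65 genes differed widely in depth, from 5 reads over the 6 samples to 53868, so they were divided at 60 reads. Of the 44 with at least 60 reads, 14 were higher and 12 lower, against 58.6% of all genes of that depth (28.6% higher and 30.0% lower), which is 59.1% of the 44. Their median absolute log2 fold change was 0.53, and that of all genes with at least 60 reads was 0.24. The medians are not of like depth, at 573.5 reads for the channel genes and 3725 for all, and genes with few reads have larger absolute values (0.73 under 60 reads). Summed over all members, the level was 1054 ± 7.56 CPM (SD, n = 3) in control and 1009 ± 6.99 CPM in high glucose. Among the genes with at least 60 reads that passed, the largest rises were in Scn4a (3.52-fold), Trpm6 (2.53-fold) and the T-type calcium channels Cacna1g (2.39-fold) and Cacna1h (2.32-fold), and the largest falls in Scn7a (3.49-fold), Scn9a (3.42-fold), Cacna2d1 (2.36-fold) and Trpv2 (2.03-fold). Just inside the limit of 60 reads stood Trpc7 with 62 reads (a log2 fold change of -0.25) and just outside it Asic2 with 58 (2.21). The value of Asic2 rests in part on a control sample with 0 reads, and its ratio of reads, high glucose over control, was 2.91.

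**Figure D1:**
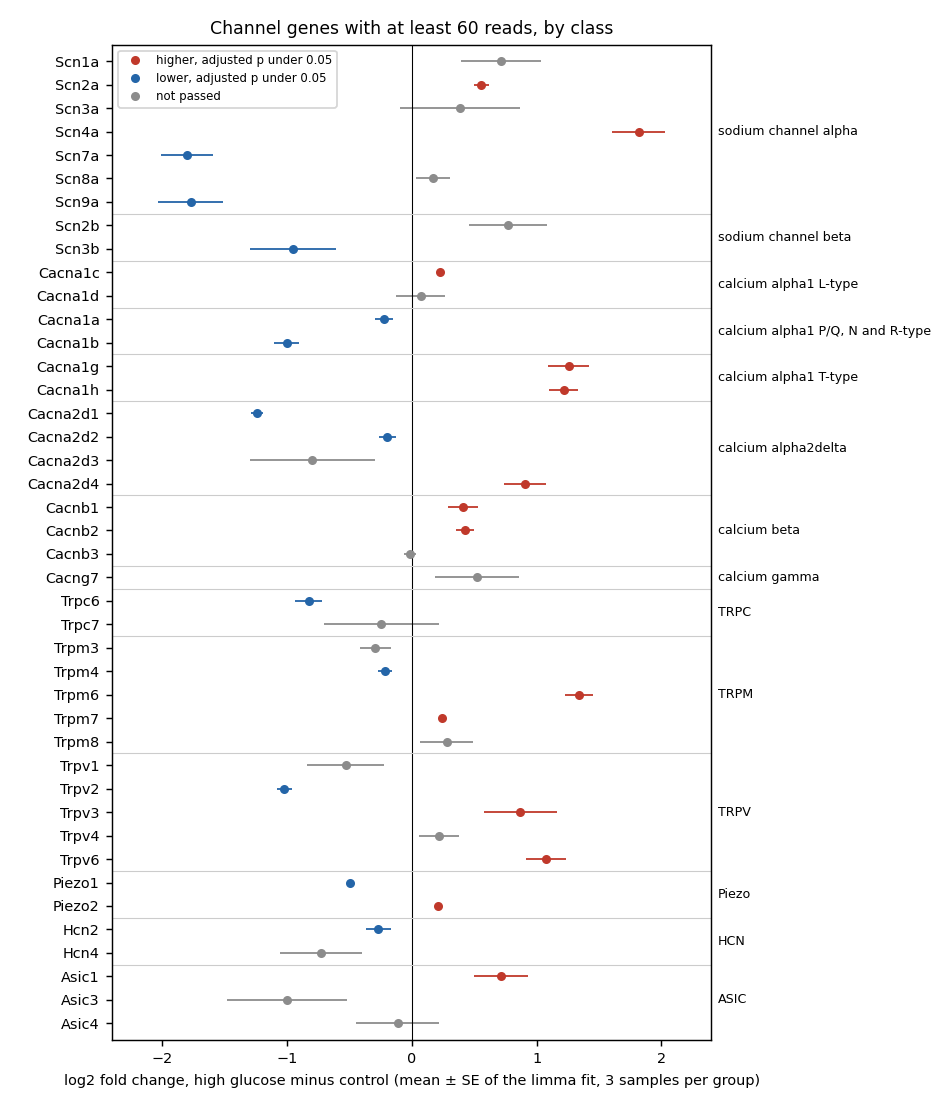
Log2 fold change of 42 channel genes with at least 60 reads, high glucose minus control, ordered by class, with bars for the SE of the limma fit (3 samples per group). Red points (14 genes) were higher and blue points (12 genes) lower at an adjusted p under 0.05, and both colours occur among the sodium alpha, alpha2delta, TRPM, TRPV and Piezo genes.

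**Figure D2:**
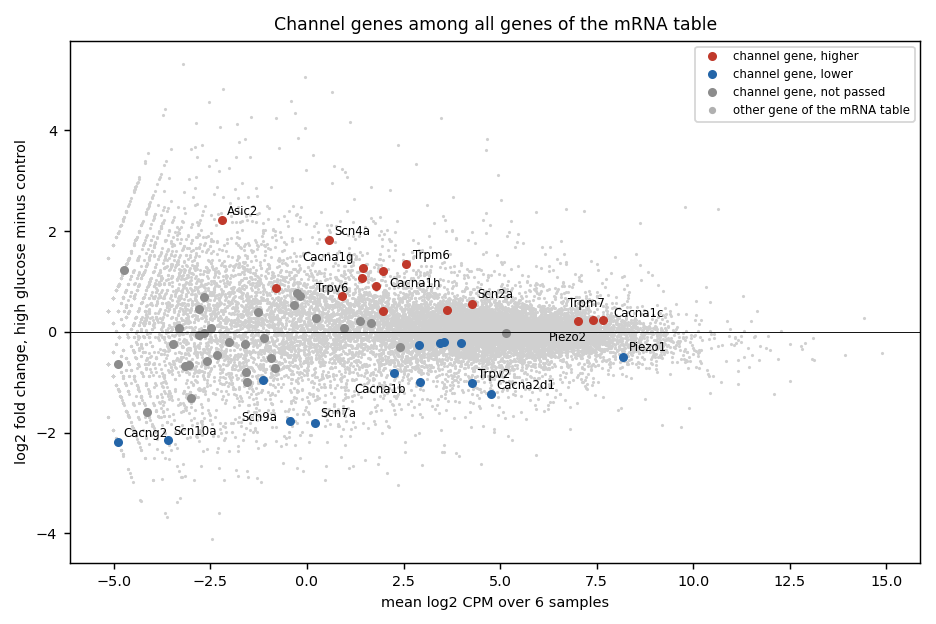
Mean log2 CPM over the 6 samples (x axis) and log2 fold change (y axis) of 61 channel genes, in colour, over all 16551 genes of the mRNA table, in grey. The abundant channels Piezo1, Cacna1c, Trpm7 and Piezo2 lie between -0.49 (Piezo1) and 0.24 (Trpm7), and the larger changes lie at lower levels.

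Promoter sequences are shown for 4 sodium channel alpha genes, of which the first (Scn2a) and the second (Scn4a) rose and the third (Scn7a) and the fourth (Scn9a) fell, because these are the alpha subunits with at least 60 reads that passed. Each runs from 250 bases before to 50 bases after the gene's start in RefSeq, on build GRCr8, which is not the build used for counting (Rnor_6.0).
Scn2a (GRCr8 chr3:70710706-70711005, plus strand): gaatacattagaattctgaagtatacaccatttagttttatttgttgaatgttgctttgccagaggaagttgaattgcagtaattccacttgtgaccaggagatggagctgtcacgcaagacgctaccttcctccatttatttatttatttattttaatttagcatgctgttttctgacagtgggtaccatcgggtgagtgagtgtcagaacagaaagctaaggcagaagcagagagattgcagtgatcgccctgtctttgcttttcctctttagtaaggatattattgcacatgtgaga
Scn4a (GRCr8 chr10:91796275-91796574, minus strand): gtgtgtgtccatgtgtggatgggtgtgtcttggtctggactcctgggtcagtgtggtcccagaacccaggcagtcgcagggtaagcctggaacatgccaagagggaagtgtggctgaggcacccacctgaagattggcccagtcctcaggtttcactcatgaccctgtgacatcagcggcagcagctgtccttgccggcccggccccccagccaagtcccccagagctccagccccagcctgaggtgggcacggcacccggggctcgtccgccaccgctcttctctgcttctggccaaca
Scn7a (GRCr8 chr3:71846235-71846534, minus strand): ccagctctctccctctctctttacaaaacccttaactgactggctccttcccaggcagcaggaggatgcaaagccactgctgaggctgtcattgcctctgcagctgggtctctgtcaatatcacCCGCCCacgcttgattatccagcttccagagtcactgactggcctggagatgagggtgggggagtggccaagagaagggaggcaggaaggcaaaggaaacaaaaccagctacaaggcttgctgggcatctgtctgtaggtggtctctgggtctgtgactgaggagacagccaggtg
Scn9a (GRCr8 chr3:71701328-71701627, minus strand): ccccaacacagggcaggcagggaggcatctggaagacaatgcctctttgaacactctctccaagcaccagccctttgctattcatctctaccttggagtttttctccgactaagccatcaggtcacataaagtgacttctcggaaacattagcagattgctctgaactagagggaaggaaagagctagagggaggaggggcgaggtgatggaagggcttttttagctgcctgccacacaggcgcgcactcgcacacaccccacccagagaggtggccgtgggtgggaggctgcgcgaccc
Capitals mark the only match to the motifs searched on both strands: a GC box (GGGCGG) on the opposite strand of Scn7a, beginning 126 bases before the start. The other motifs were the TATA box (TATAAA), the AP-1 site (TGANTCA), the CRE (TGACGTCA), the core of NFAT family sites (TGGAAA) and the E-box CACGTG, none of which contains another. Of 33469 rat promoters of this length, 33.1% held the GC box, 14.2% the TATA box, 7.33% the AP-1 site, 1.83% the CRE, 22.7% the NFAT core and 6.42% the E-box. Sequences were found for 47 of the 65 channel genes, in 54 promoters, of which 22 held the GC box, 4 the TATA box, 2 the AP-1 site, 0 the CRE, 10 the NFAT core and 2 the E-box. Some genes had several promoters, and windows of Cacna2d1 and of Trpm6 overlap, so the same site can count more than once. The Scn2a window had 39.3% G and C bases and 4 CpG dinucleotides, the Scn4a window 63.7% and 9, and the Scn7a and Scn9a windows 56.0% each, with 2 and 9 CpG. The median of all promoters was 51.7% with 7.

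Among sodium channel alpha subunits, Scn2a and Scn4a rose and Scn7a and Scn9a fell, while Scn1a, Scn3a and Scn8a did not pass. Scn2a (ENSRNOG00000005018), the Nav1.2 channel of axons, stood at 4.06, 3.94 and 3.95 log2 CPM in control and at 4.57, 4.59 and 4.47 in high glucose. All high-glucose samples lay above all control samples, with a log2 fold change of 0.56 ± 0.06 (1.47-fold, adjusted p = 2.63e-06). Scn4a (ENSRNOG00000012134), the Nav1.4 channel best known from skeletal muscle, stood at -0.07, -0.66 and -0.27 in control and at 1.53, 1.48 and 1.44 in high glucose. The groups lay apart by more than any spread within them, on 69 reads against 265 (1.82 ± 0.21, adjusted p = 7.52e-06).

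Scn7a (ENSRNOG00000029342) encodes Nax, a sodium channel relative that senses the sodium level outside the cell and is found in glia and neurons. It stood at 1.07, 1.13 and 1.15 log2 CPM in control and at -0.70, -0.76 and -0.60 in high glucose. The groups did not overlap, on 190 reads against 58 (-1.80 ± 0.21, adjusted p = 7.95e-06). Scn9a (ENSRNOG00000006639), the Nav1.7 channel that sets the threshold of pain-sensing neurons, had 40, 39 and 40 reads in the control samples and 11, 11 and 15 in the high-glucose samples. On the log2 CPM scale these were 0.54, 0.35 and 0.45 against -1.38, -1.45 and -1.14, again with no overlap, and the log2 fold change was -1.77 ± 0.26 (adjusted p = 6.95e-05). The 4 calls held in each alternative run.

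Scn8a, the Nav1.6 channel of nodes of Ranvier, did not pass on 263 and 319 reads, with a 95% interval of the log2 fold change from -0.13 to 0.46. For Scn1a (Nav1.1), on 60 and 112 reads, the value was 0.72 ± 0.32 (adjusted p = 0.0800), which passed without the second high-glucose sample (0.0193) and with the replicate number as a block (0.0469). For Scn3a (Nav1.3), the interval ran from -0.66 to 1.43 on 34 and 49 reads. Scn2a took 64.3% ± 0.92 (SD, n = 3) of the reads of the alpha family in control and 71.8% ± 1.67 in high glucose, Scn4a 3.19% ± 0.57 and 8.58% ± 0.12, Scn7a 8.76% ± 0.52 and 1.87% ± 0.15, and Scn9a 5.50% ± 0.21 and 1.19% ± 0.17. These shares are of reads and not per length. The family's sum was 24.6 ± 0.85 CPM in control and 32.4 ± 0.70 CPM in high glucose.

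Several of these genes are neighbours. In RefSeq's order on rat chromosome 3, Scn3a and Scn2a lie side by side, 4 protein-coding genes further lies Scn1a, and Scn9a and Scn7a follow it with no protein-coding gene between them. Along this cluster Scn3a and Scn1a did not pass, Scn2a rose, and the neighbours Scn9a and Scn7a fell by log2 fold changes of -1.77 and -1.80.

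Beta subunits were less clear. Scn3b, which shapes the gating of neuronal sodium channels, stood at -0.75, -0.34 and -0.93 log2 CPM in control and at -1.82, -1.21 and -1.84 in high glucose. The groups did not overlap, on 55 and 30 reads, and the log2 fold change was -0.95 ± 0.35 (adjusted p = 0.0353). The adjusted p was 0.0627 without the first and 0.132 without the second control sample, and 0.0939 and 0.0931 without the first and the third high-glucose sample. Scn2b, which is linked to the alpha subunit by a disulfide bond, was at 0.77 ± 0.31 and missed the threshold (adjusted p = 0.0563). It passed without the first control sample (0.0328) or the first high-glucose sample (0.0186).

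Both T-type calcium channels of the mRNA table rose. T-type channels open near the resting potential, and Cacna1h (Cav3.2) is the form best known in sensory neurons. Cacna1h (ENSRNOG00000033893) stood at 1.36, 1.33 and 1.35 log2 CPM in control and at 2.57, 2.51 and 2.61 in high glucose. The spread within a group was small (SD of 0.02 and 0.05) beside the gap between groups, and the rise was 1.22 ± 0.12 (2.32-fold, adjusted p = 1.11e-06). Cacna1g (Cav3.1, ENSRNOG00000060528) stood at 0.71, 0.68 and 1.10 in control and at 2.01, 1.99 and 2.27 in high glucose. Its groups lay apart as well, with a rise of 1.26 ± 0.16 (2.39-fold, adjusted p = 2.41e-05). The sum of both genes was 4.31 ± 0.32 CPM in control and 10.2 ± 0.66 CPM in high glucose (SD, n = 3).

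The remaining T-type gene, Cacna1i (Cav3.3), stands in the lncRNA table, which was scaled apart, and is no member by the rule. Its row had 22, 39 and 25 reads in control and 19, 14 and 11 in high glucose. It was lower on that table's own scale, by a log2 fold change of -1.23 ± 0.31 (limma, adjusted p = 0.0163), where 12.8% of the 1012 rows passed (5.53% higher and 7.31% lower). Its groups did not overlap, as in 29.6% of those rows. Its value cannot be set beside those of Cacna1g and Cacna1h, and which transcript the row counts was not given in the sources used here.

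Of the high-voltage-activated alpha1 subunits, those of the N and P/Q types fell and the main L-type gene rose slightly. Cacna1b (ENSRNOG00000004560), the N-type channel Cav2.2 that feeds transmitter release at pain synapses, stood at 3.47, 3.49 and 3.28 log2 CPM in control and at 2.57, 2.32 and 2.35 in high glucose. Every high-glucose sample lay below every control sample, with a log2 fold change of -1.002 ± 0.10 (2.003-fold, adjusted p = 1.66e-06). Cacna1a, the P/Q-type channel Cav2.1, fell by less, at -0.22 ± 0.07 (adjusted p = 0.0194). The adjusted p of Cacna1a was 0.0706 without the second control sample and 0.0640 and 0.0627 without the first and the second high-glucose sample. Cacna1c, the L-type channel Cav1.2 of muscle, heart and many other cells, rose, from 16406 control reads to 20772, by 0.23 ± 0.02 (1.17-fold, adjusted p = 1.46e-06). Cacna1d (Cav1.3) did not pass, with an interval of -0.36 to 0.50.

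The alpha2delta genes moved in opposite directions. Cacna2d1 (ENSRNOG00000033531), the subunit bound by gabapentin, stood at 5.36, 5.41 and 5.36 log2 CPM in control and at 4.12, 4.22 and 4.08 in high glucose. The groups were more than 1 log2 unit apart, and the fall of -1.24 ± 0.05 had the smallest adjusted p of all channel genes (1.55e-10). Cacna2d4 (ENSRNOG00000008031), known from photoreceptors, stood at 0.95, 1.63 and 1.39 in control and at 2.12, 2.28 and 2.28 in high glucose. It rose by 0.91 ± 0.17 (1.87-fold, adjusted p = 0.000502), with a wider spread in control (SD 0.35) than in high glucose (0.09).

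Cacna2d2, another gabapentin-binding subunit, had a fall of -0.20 ± 0.07 (adjusted p = 0.0341). That call was lost without the first or the third control sample (0.0785 and 0.123) and without the second or the third high-glucose sample (0.101 and 0.0730). Cacna2d3, on 44 and 23 reads, did not pass (-0.80 ± 0.50, adjusted p = 0.207), but passed without the first control sample (0.0188). Cacna2d1 took 72.8% ± 1.13 of the reads of this family in control and 52.6% ± 1.43 in high glucose, and Cacna2d4 took 4.41% ± 0.94 and 14.0% ± 0.88. The family's sum was 57.2 ± 1.24 CPM and 33.5 ± 0.80 CPM.

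Beta subunits bind the alpha1 subunit inside the cell and help it reach the membrane. Cacnb1 and Cacnb2 rose, by 0.41 ± 0.12 (1.33-fold, adjusted p = 0.0116) and 0.43 ± 0.07 (1.34-fold, adjusted p = 0.000244). Cacnb3, the beta gene with most reads (3128 and 3354), did not pass, and its interval of -0.12 to 0.09 allows only a small change. Of the gamma genes, which include partners of AMPA receptors, only Cacng7 had 60 reads, and it did not pass (0.52 ± 0.33, adjusted p = 0.217).

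**Figure D3:**
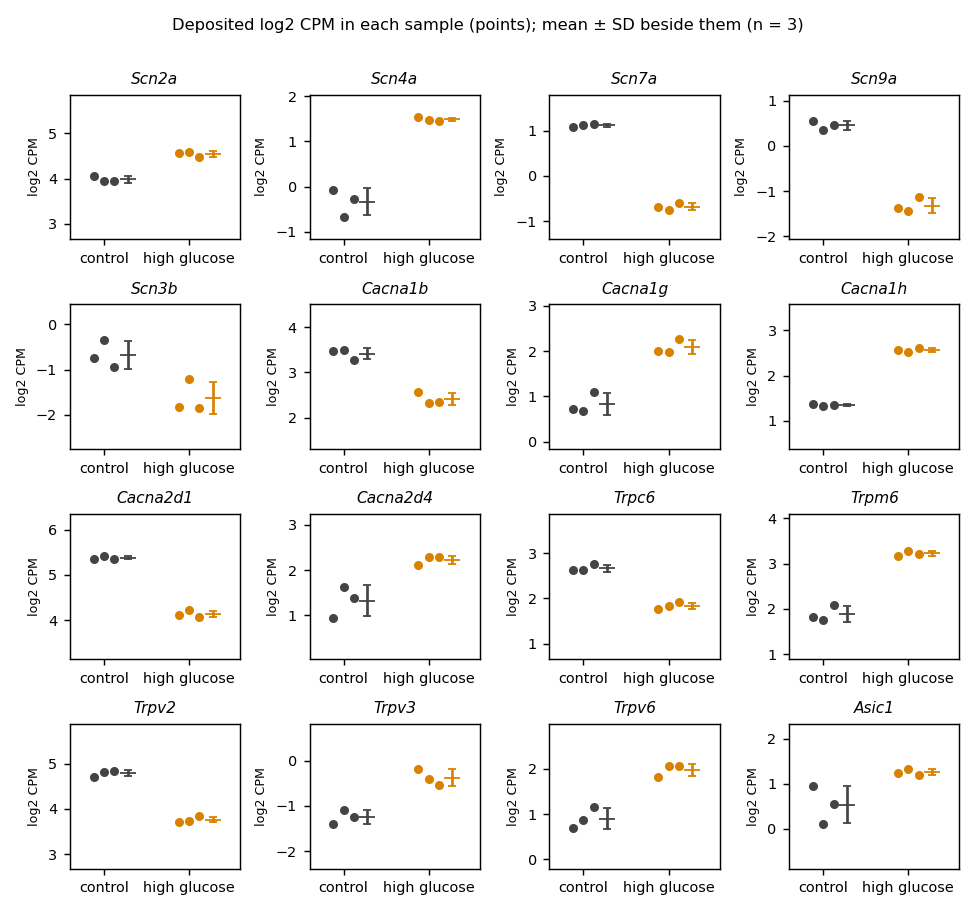
Deposited log2 CPM in each control sample (dark) and each high-glucose sample (orange) for the 16 channel genes with at least 60 reads that passed with an absolute log2 fold change of at least 0.5, with mean ± SD (n = 3) beside the points. Every panel spans the same number of log2 units. The groups lie apart in each panel, which follows from how the genes were chosen, and the largest SD is that of Asic1 in control (0.41).

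TRP channels with at least 60 reads numbered 12, of which 4 were higher, 3 lower and 5 did not pass. The share that passed, 58.3%, was near the 58.6% of all genes of that depth. Trpm6 (ENSRNOG00000013053), a channel fused to a kinase that carries magnesium into epithelial cells, stood at 1.83, 1.74 and 2.09 log2 CPM in control and at 3.18, 3.28 and 3.22 in high glucose. The lowest high-glucose sample lay over 1 log2 unit above the highest control sample, and the rise was 1.34 ± 0.11 (2.53-fold, adjusted p = 2.41e-07). Trpm7, the widely expressed relative with which TRPM6 assembles, rose by 0.24 ± 0.02 (1.18-fold, adjusted p = 1.47e-06) on 13835 and 17728 reads. Trpm4, a channel that calcium opens and sodium passes, fell by 0.21 on the log2 scale (SE 0.06, adjusted p = 0.00767).

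The remaining TRPM genes of this depth did not pass. Trpm8, the cold and menthol receptor, stood at 0.14, -0.07 and 0.18 in control and at 0.36, 0.44 and 0.28 in high glucose. All high-glucose samples were above all control samples, but the difference of 0.28 ± 0.21 did not pass (adjusted p = 0.304) except where all genes shared a single variance prior (0.0479). Groups that do not overlap were found in 64.9% of all genes of this depth. Trpm3, a heat-activated channel of sensory neurons, had a value of -0.29 ± 0.13 (adjusted p = 0.0695) and passed without the third control sample (0.0328) and after quantile normalization (0.0484).

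The vanilloid TRPV genes split. Trpv2 (ENSRNOG00000003104), a channel of large sensory neurons, macrophages and muscle, stood at 4.71, 4.81 and 4.83 log2 CPM in control and at 3.71, 3.74 and 3.84 in high glucose. Every high-glucose sample lay below every control sample, with a fall of -1.02 ± 0.06 (2.03-fold, adjusted p = 5.84e-09). Trpv6 (ENSRNOG00000014714), a calcium-selective channel of absorbing epithelia, stood at 0.68, 0.87 and 1.15 in control and at 1.81, 2.06 and 2.05 in high glucose. It rose by 1.08 ± 0.16 (2.11-fold, adjusted p = 9.46e-05) with no overlap. Trpv3, a warmth sensor of skin, stood at -1.40, -1.09 and -1.24 and at -0.18, -0.41 and -0.54, on 36 and 72 reads. It rose by 0.87 ± 0.29 (adjusted p = 0.0249), which became 0.0614 without the first control sample and 0.0916 and 0.0581 without the first and the second high-glucose sample.

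Trpv1, the capsaicin and heat receptor, had 18 reads in each control sample and 10, 14 and 17 in the high-glucose samples. On the log2 CPM scale it stood at -0.59, -0.74 and -0.68 and at -1.51, -1.11 and -0.96. Control lay above high glucose in every sample, but the difference of -0.53 ± 0.31 did not pass (adjusted p = 0.176) except with a single variance prior (0.0456). Trpv4, a channel opened by cell swelling and warmth, did not pass on 211 and 269 reads, with an interval of -0.13 to 0.56. The share of TRPV reads that Trpv2 took was 83.9% ± 0.61 in control and 63.2% ± 0.65 in high glucose, and that of Trpv6 was 5.66% ± 0.72 and 18.3% ± 1.30.

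Of the canonical TRPC genes, only Trpc6 and Trpc7 reached 60 reads. Trpc6 (ENSRNOG00000006324), a diacylglycerol-gated channel of smooth muscle and kidney podocytes, stood at 2.62, 2.62 and 2.75 log2 CPM in control and at 1.77, 1.83 and 1.91 in high glucose. The groups did not overlap and the fall was -0.83 ± 0.11 (1.77-fold, adjusted p = 2.34e-05). Of the 11 mural and smooth muscle markers, 6 were lower in the same samples, among them Acta2 (-1.23) and Myh11 (-1.51), 3 were higher, Kcnj8 (1.85), Abcc9 (0.82) and Notch3 (0.76), and Pdgfrb and Des did not pass. Their part in the fall of Trpc6 was not tested. Trpc7 had 31 reads in each group and did not pass.

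The Piezo channels, which open when the membrane is stretched, moved in opposite directions. Piezo1 (ENSRNOG00000056786), the form of vessels, blood cells and connective tissue, stood at 8.45, 8.44 and 8.40 log2 CPM in control and at 7.91, 7.91 and 7.998 in high glucose. Its groups were far apart beside their SD of 0.02 and 0.05, and it fell by -0.49 ± 0.03 (1.41-fold, adjusted p = 4.00e-09). Piezo2 (ENSRNOG00000038784), the touch and proprioception channel of sensory neurons, stood at 6.91, 6.91 and 6.89 in control and at 7.11, 7.14 and 7.11 in high glucose. It rose by 0.21 ± 0.02 (1.16-fold, adjusted p = 7.35e-06), a small change that was larger than the spread within either group. Each kept its direction under the 2 other scalings, with values from -0.52 to -0.44 for Piezo1 and from 0.20 to 0.24 for Piezo2 over all alternatives. Piezo1 took 74.2% ± 0.16 of the Piezo reads in control and 63.8% ± 0.98 in high glucose. Piezo2 held 10586 and 13256 reads, and which cells these came from cannot be told from bulk RNA. Of the 17 pan-neuronal markers 9 were lower, 1 was higher and 7 did not pass (58.8% passed, beside 50.5% of all genes).

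**Figure D4:**
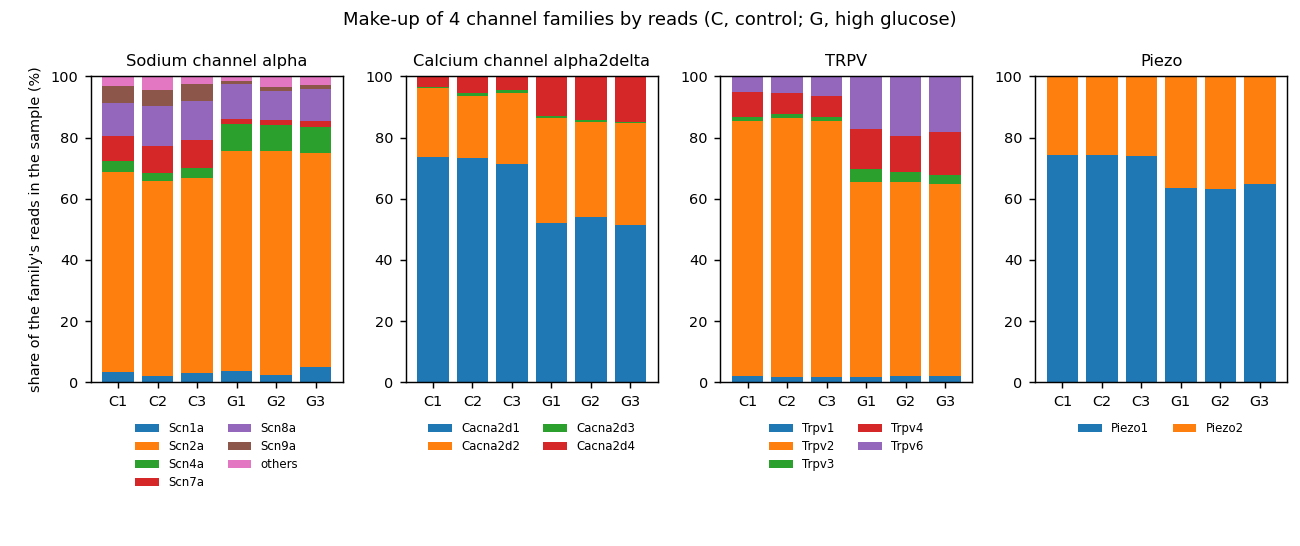
Share of a family's reads taken by each gene in each sample, in percent, for the sodium alpha, alpha2delta, TRPV and Piezo families (C, control; G, high glucose), with the scarcest sodium alpha genes drawn together. Within each group the bars are alike, and between groups Scn7a and Scn9a, Cacna2d1, Trpv2 and Piezo1 take a smaller part in high glucose, where Piezo1 goes from 74.2% to 63.8%.

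HCN and ASIC genes gave few calls. Hcn2, a pacemaker channel linked to inflammatory and nerve injury pain, stood at 3.03, 3.21 and 2.87 log2 CPM in control and at 2.86, 2.78 and 2.67 in high glucose. The groups were close but did not overlap, with a fall of -0.27 ± 0.10 (adjusted p = 0.0432). The adjusted p was 0.0820 and 0.188 without the first and the second control sample, 0.0739 and 0.142 without the second and the third high-glucose sample, and 0.0985 with a single variance prior. Hcn4, the form of the heart's pacemaker, had a value of -0.73 ± 0.33 (adjusted p = 0.0833) and passed without the third high-glucose sample (0.0349) and after quantile normalization (0.0430).

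Asic1, a widely expressed acid-sensing channel, stood at 0.95, 0.12 and 0.56 log2 CPM in control and at 1.23, 1.33 and 1.20 in high glucose. It rose by 0.71 ± 0.21 (1.64-fold, adjusted p = 0.0135), with most of the spread in control (SD 0.41 against 0.06). That call was lost without the second control sample (0.0550) and with a single variance prior (0.0518). Asic3, the acid sensor of muscle and skin nociceptors, stood at -1.40, -0.82 and -0.93 and at -3.10, -1.21 and -1.84. The groups overlap, and the value of -1.001 ± 0.48 did not pass (adjusted p = 0.100) except without the second high-glucose sample (0.0315). Asic4 had 41 reads in each group and did not pass.

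The 21 members under 60 reads are described as reads. Of these, 1 passed as higher and 2 as lower, where 11.4% of all genes under 60 reads passed (7.28% higher and 4.15% lower). Scn10a, the Nav1.8 channel of nociceptors, had 9, 5 and 2 reads in the control samples and 0, 1 and 2 in the high-glucose samples. Relative to library size this was 5.77 times as much in control, with exact 95% counting limits of 1.65 and 30.9, and the limma test gave an adjusted p of 0.0322. That p was 0.153 and 0.0804 without the first and the second control sample, 0.110 without the first high-glucose sample, 0.0796 with a single variance prior and 0.0530 with the replicate number as a block. A control and a high-glucose sample of Scn10a tied at 2 reads and were apart on the log2 CPM scale only through library size. On that scale the groups did not overlap in 7 of the 21, where 22.4% of all genes under 60 reads were so. Asic2, a partner of Asic1, had 0, 5 and 9 reads in control and 19, 12 and 13 in high glucose, a ratio of 2.91 (1.56 to 5.74, adjusted p = 0.0413). The call was lost without the first control sample (0.0993) or without the first, the second or the third high-glucose sample (0.136, 0.0635 and 0.0734), after quantile normalization (0.0863) and with a single variance prior (0.189). Cacng2 (stargazin) had 5 reads in control and 0 in high glucose. With its 5 control reads taken as exact, Cacng2 was 1.80-fold lower against a floor of 3 reads, which is no lower limit. Its adjusted p of 0.0417 ran from 0.0588 to 0.118 when any one sample was left out, and was 0.0568 with 2 reads added before the logarithm and 0.0623 with the replicate number as a block. The intervals cover counting error only, and the floor leaves out that of the control reads.

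None of the other 18 passed. Scn11a (Nav1.9) had 8 control reads and 7 high-glucose reads, and Scn4b 11 and 7. Among calcium channel genes, Cacna1e (Cav2.3) had 13 and 14 reads, Cacna1f 10 and 19, Cacna1s 13 and 9, Cacnb4 25 and 15, Cacng4 18 and 12, Cacng5 1 and 6, and Cacng8 3 and 2. Trpa1, the receptor for mustard oil, had 9 and 2 reads, a ratio of 4.87 with an interval of 1.01 to 46.3. Trpm2, a channel opened by oxidative stress, had 4, 6 and 6 reads against 2 in each high-glucose sample, a ratio of 2.88 (1.07 to 9.0), and missed the threshold (adjusted p = 0.0506). Trpm2 passed with a single variance prior (0.00171), with 2 reads added before the logarithm (0.0302) and after quantile normalization (0.0156). Trpc4 had 12 and 12 reads, Trpc5 10 and 17, Trpm1 23 and 22, Trpm5 8 and 9, and Hcn3 14 and 18.

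**Figure D5:**
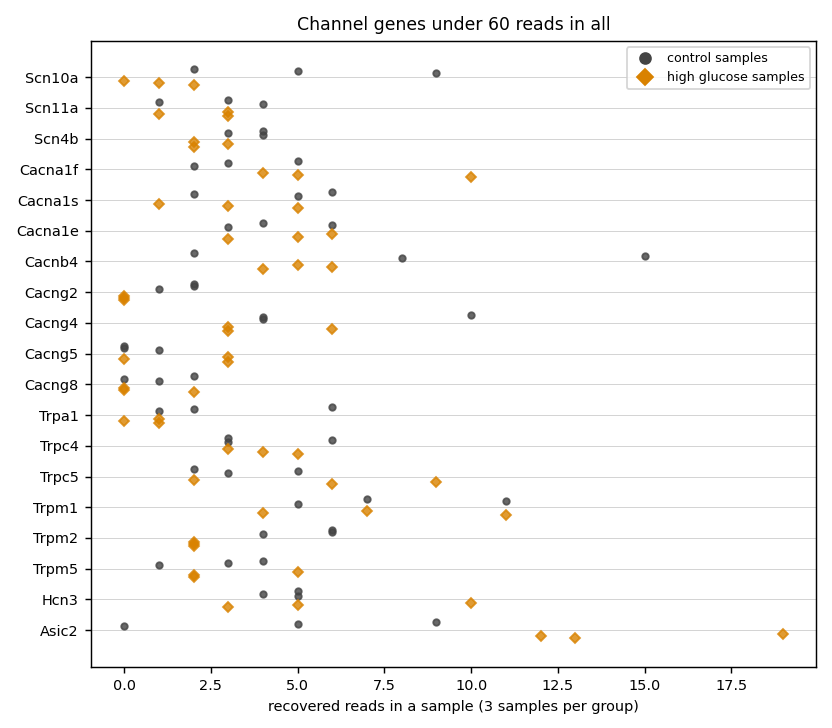
Recovered reads in each control sample (dark circles) and each high-glucose sample (orange diamonds) for 19 channel genes under 60 reads over the 6 samples. Asic2, with 14 reads against 44, is among the few whose groups lie apart, while those of Scn10a, with 16 against 3, meet at 2 reads.

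Genes that work with these channels were described from 4 lists, beside a share of 50.5% of all genes that passed. Of 15 measured partners of sodium channels, 6 were lower and 2 higher (53.3%), where 58.6% of all genes with at least 60 reads passed. All 15 partners had at least 63 reads. Their median log2 fold change was -0.10, where that of all genes was 0.01. Ank3, the ankyrin G scaffold that gathers sodium channels at the axon initial segment, had a value of -0.55 ± 0.06, and the adhesion molecule Nrcam one of -0.77 ± 0.10. Calm3, a calmodulin, and Nedd4l, a ubiquitin ligase that removes sodium channels from the membrane, had values of -0.49 ± 0.02 and -0.35 ± 0.04. Nfasc, neurofascin of nodes of Ranvier, was named after its values were seen and had the largest fall of the list (-1.64 ± 0.27, adjusted p = 0.000169). The partners that rose were Sptbn4, the spectrin of the initial segment (0.72 ± 0.14), and Nedd4 (0.21 ± 0.01).

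Of 14 calcium channel regulators, 4 were lower and 3 higher (median -0.13). That share of 50% stands beside 50.5% of all genes and 58.6% of those with at least 60 reads, a depth that most of the list had. Rims1, a scaffold that ties calcium channels to synaptic vesicles, was 5.23-fold lower, on 1170 and 244 reads (-2.39 ± 0.16, adjusted p = 2.75e-08), and Rims2 fell by -0.30 ± 0.10. Stac, which slows channel inactivation, and Cachd1, a protein related to alpha2delta, had values of -0.82 ± 0.15 and -0.26 ± 0.05. The small GTPases Rrad and Gem, which inhibit high-voltage-activated calcium channels, rose by 1.04 ± 0.26 (2.06-fold) and 0.50 ± 0.13 (1.42-fold), and Dpysl2 rose by 0.07 ± 0.02. The call of Rims2 was lost without the first (0.0846) or the third control sample (0.0565), without the third high-glucose sample (0.121) and with a single variance prior (0.0629), and that of Dpysl2 with a single variance prior (0.0731).

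Store-operated and intracellular calcium channels gave 15 calls among 16 measured, 9 higher and 6 lower, with a median of 0.15, where 58.6% of all genes with at least 60 reads passed. These shares are not of like depth, since the median was 6385 reads for the list and 3725 for those genes. Ryr3, a ryanodine receptor of the endoplasmic reticulum, rose by 0.94 ± 0.04 (1.92-fold), the plasma membrane channel Orai2 by 0.49 ± 0.05, and the lysosomal channels Tpcn1 and Tpcn2 by 0.33 ± 0.03 and 0.43 ± 0.08. The inositol trisphosphate receptors Itpr3 and Itpr1 fell by -0.69 ± 0.03 and -0.31 ± 0.02, the lysosomal channel Mcoln3 by -2.27 ± 0.29 on 122 and 26 reads, and Saraf, an inhibitor of store-operated entry, by -0.25 ± 0.03.

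Among 23 measured genes of other cation channels and their partners, 6 were higher and 5 lower (median 0.13), or 47.8% beside 50.5% of all genes. Pkd2, polycystin 2, rose by 0.84 ± 0.02 (1.79-fold), while Pkd1, its large partner, fell by -0.31 ± 0.02. Tmem100, an adaptor between TRPA1 and TRPV1, rose by 1.72 ± 0.11 (3.28-fold), Tmem150c, named tentonin, by 0.61 ± 0.14, and Tmc2, of the hair cell channel family, by 2.16 ± 0.55 on 5 and 28 reads. Nalcn, the sodium leak channel, fell by -0.74 ± 0.12, Stom, stomatin, by -0.43 ± 0.05, and Mdfic, an auxiliary protein of Piezo channels, by -0.22 ± 0.03.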

How the data were processed

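RNA from 3 control and 3 high-glucose samples was sequenced. The authors deposited log2 values in separate tables for mRNA (16551 genes) and lncRNA (1012 rows), voom-normalized per the file names. The tools named, per the submitters' processing notes, are HISAT2 2.1.0, fastp 0.19.4 and featureCounts 1.6.0, with Rnor_6.0 as the genome and no settings. The annotation version and the strand of the counting were not given in the sources used here, so reads of overlapping and antisense genes cannot be told apart. The values fit the form log2 of reads plus 0.5 relative to the scaled library (log2 CPM), and 100% of them came within 0.01 of a whole read (largest distance 0.0033). Scaling factors ran from 0.959 to 0.964 for control and from 1.03 to 1.05 for high glucose, so small changes depend on this scaling. Every row had reads in at least 3 samples, so genes seen in fewer are not analysed here.

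Samples were grouped by their titles. No sample was a copy of another (mean chi-square per gene 3.01 to 4.80 within groups). Counting all 6 as replicates is an assumption, since technical duplicates could differ as much. A linear model with a mean-variance trend was fitted to the deposited log2 values of the whole table (limma 3.58.1, R 4.3.3). P-values are two-sided and were adjusted over the table by Benjamini-Hochberg, and the threshold was 0.05. The lncRNA table was fitted apart, for Cacna1i alone. The test was also run on simulated data, on which no result here rests.

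Channel genes, classes and lists were chosen with earlier results of these data known. Members are named once, except 4 that are not reported here, and log2 values by sample are given for those with at least 60 reads that passed with an absolute log2 fold change of at least 0.5 and for a fixed panel. Of each related list, up to 4 genes with the smallest p in each direction are named. For list genes whose symbol stood on several rows, the most abundant row was taken. The gene and promoter tables (RefSeq, GRCr8) matched 65 and 47 of the 65 members and served for neighbours and sequences. Plots were made in Python 3.11.15 (matplotlib 3.10.9). Alternatives were 2 other scalings, 2 reads added, 2 filters on low genes, a single variance prior, voom weights, the replicate number as a block and leaving out each sample.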

Additional observations from a re-analysis of the deposited data

How the results depend on the processing

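Of the 29 channel genes that passed, 20 kept direction and call under all 14 alternatives (12 where a filter removed the gene), and 9 lost the call in at least one: Scn3b, Cacna1a, Cacna2d2, Trpv3, Hcn2 and Asic1 among well-read genes and Scn10a, Cacng2 and Asic2 among scarce ones. None of the 29 changed direction. Of the 36 that did not pass, 9 passed in at least one alternative. Members passing numbered 14 to 15 higher and 9 to 13 lower when a sample was left out, 14 and 17 after quantile normalization, and 13 and 10 under either filter on low genes. Those with at least 60 reads numbered 13 to 14 higher and 9 to 12 lower over the samples left out. With the replicate number as a block, 16 members were higher and 12 lower. Deviations of same-numbered samples correlated at -0.0921, -0.0433 and 0.0255 over 12247 genes, and those of different-numbered samples at -0.0714 to 0.116. No pairing by number was seen, but 3 samples per group are too few to exclude it.

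Class medians moved by more than the spread between samples in some settings; the cause was not tested except that the filters leave fewer genes. The sodium alpha median of 0.38 was 0.24 after quantile normalization, 0.56 without the lowest 25% of genes and 0.12 to 0.54 over the samples left out. The alpha2delta median of -0.50 was -0.20 under either filter and -0.72 to -0.32 over the samples left out. The beta median of 0.41 was 0.33 after quantile normalization and 0.35 to 0.44 over the samples left out. After quantile normalization the TRPM median of 0.24 was 0.18 and the Piezo median of -0.14 was -0.10. The ASIC median of -0.11 ran from -0.24 to 0.0793 over the samples left out, and was 0.71 under either filter, which leaves Asic1 alone. The median of all genes stayed within 0.02 of 0 under every scaling.

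Of the members described that did not pass, 12 changed sign in some setting, without passing there. When a sample was left out their log2 fold changes ran as follows: Scn3a -0.0879 to 0.79, Scn11a -0.74 to 0.16, Cacna1d -0.0526 to 0.27, Cacna1e -0.25 to 0.29, Cacnb3 -0.0604 to 0.0285, Cacnb4 -1.19 to 0.0897, Trpc4 -0.23 to 0.19, Trpc7 -0.67 to 0.11, Trpm1 -0.49 to 0.13, Trpm5 -0.36 to 0.39, Hcn3 -0.38 to 0.50 and Asic4 -0.24 to 0.0793. Other sign changes were Cacna1d at -0.0441 (quantile normalization), Cacnb3 at 0.000402 (quantile normalization), Trpm5 at -0.21 (quantile normalization), Trpm5 at -0.00733 (2 reads added before the logarithm), Hcn3 at -0.14 (quantile normalization). Depth limits what the 21 scarce members can show.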
